A study of Mus musculus with 7 samples.

Results

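The data concern 10 mature miRNAs known from neurons and studied in connection with seizures, miR-132-3p, miR-212-3p, miR-124-3p, miR-218-5p, miR-9-5p, miR-9-3p, miR-128-3p, miR-138-5p, miR-137-3p and miR-139-5p. They were chosen by name with earlier results of these data known, and all 10 were among the 640 mature miRNAs counted in mouse plasma. A mature miRNA is loaded into an Argonaute protein such as Ago2, and its seed, the bases near its 5′ end, pairs with messenger RNAs and lowers their output. Neurons carry miRNAs that keep them in the neuronal state, such as miR-124 and miR-9, others that shape synapses and excitability, such as miR-138 and miR-128, and the miR-132 and miR-212 pair, whose transcription follows neuronal activity. Outside the cell, Ago2 protects bound miRNAs from degradation, and miRNAs of brain origin in blood are sought as markers of seizures.

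Ago2 was immunoprecipitated from the plasma of mice of strain c57 (adult males of C57BL/6JOlaHsd in the study's methods), and the small RNA bound to it was sequenced in 7 libraries, 1 for each condition, each from plasma pooled over several mice. Control mice received PBS and were bled at 4 h, 8 h and 24 h, and the other mice received kainic acid (KA) into the amygdala, which triggers status epilepticus (SE), and were bled at the same 3 times and again at 2 weeks. The study's methods describe midazolam or lorazepam given after kainic acid, and they state that the control library of 2 weeks did not pass quality control, so SE 2 weeks was compared with control 24 h, a library that the 24 h comparison also uses. With a single pool per condition there are no replicates, and comparisons of a pair of libraries are comparisons of those libraries and not of the conditions.

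Control libraries held 2043220 (4 h), 3529563 (8 h) and 3412752 (24 h) counts. SE libraries held 5405357 (4 h), 3166964 (8 h), 3718313 (24 h) and 2541062 (2 weeks). Levels are CPM (counts scaled to a common library size) on library sizes adjusted by the trimmed mean of M-values (TMM). A miRNA was taken as present in a library at over 3 counts, which is between 0.696 CPM in control 8 h and 1.72 CPM in control 4 h. No molecular identifiers were used in counting, so this floor covers counting error only.

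Low counts did not spread evenly down to 0 but gathered around a value particular to each library, here called the low-count value. For control 4 h, 8 h and 24 h it was 102, 60.2 and 55.1 counts. For the 4 SE libraries in order of time it was 37.6, 51.9, 45.2 and 33.1 counts. As a level this was 58.7 CPM in control 4 h against 8.83 CPM in SE 4 h, and between 10.7 and 16.1 CPM in the other 5 libraries. A miRNA present in a single library had a median count of 0.848 to 0.971 times the low-count value of that library. The mean levels of 9 of the 10 miRNAs were below 58.7 CPM, the level around which low counts gathered in control 4 h. It is not a minimum, since 42 miRNAs had 1 to 3 counts there. Counts are also given below as multiples of the low-count value, and intervals on multiples are exact 95% Poisson or binomial intervals that treat each whole multiple as 1 independent event, an assumption that was not tested. On this scale a count of 0 allows up to 3.69 multiples. For the 10 neuronal miRNAs, a count of 0 to 3 beside a higher one is given with the multiples that the lower library would have held at the same level. These stand in place of a fold change, since a fold against 3 counts covers read counting alone.

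More of the neuronal miRNAs were present in the SE libraries of the first day than in the control libraries, with the highest number at 8 h. Each of the 3 control libraries had 4 of the 10, and SE had 6 (4 h), 9 (8 h), 7 (24 h) and 3 (2 weeks). Of all 640 miRNAs, control had 190 (4 h), 293 (8 h) and 283 (24 h), and SE had 368 (4 h), 312 (8 h), 287 (24 h) and 314 (2 weeks). The shares were thus 90.0% of the neuronal miRNAs and 48.8% of all miRNAs in SE 8 h, and 40.0% and 45.8% in control 8 h. In SE 4 h, the deepest library, the shares were 60% and 57.5%. Just miR-128-3p and miR-139-5p were present in all 7 libraries.

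**Figure D1:**
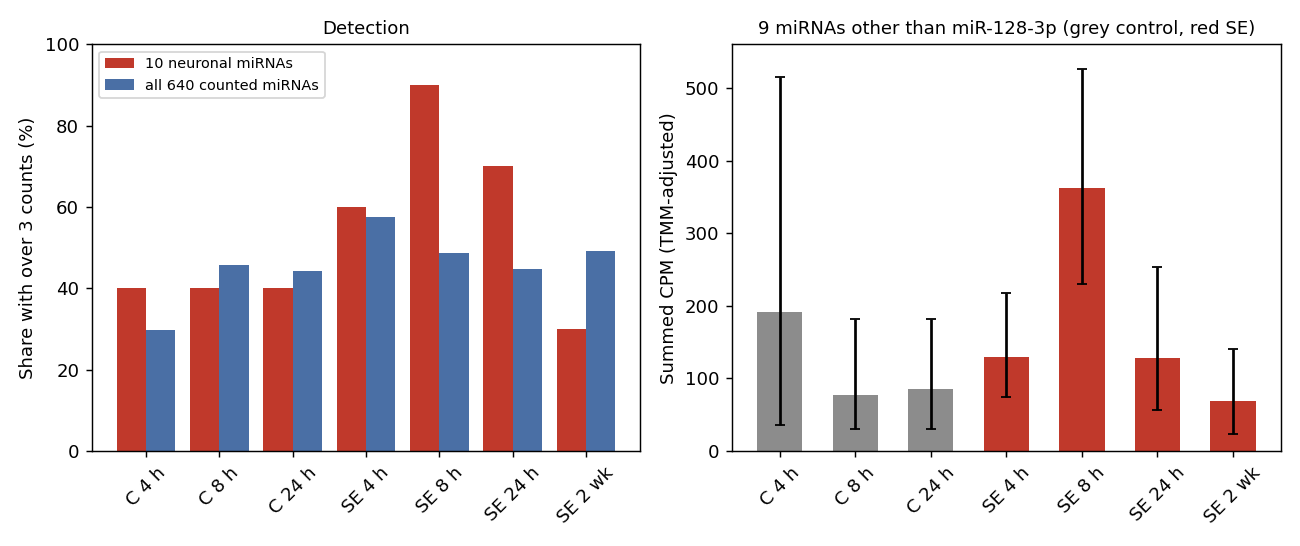
Left, percentage of the 10 neuronal miRNAs (red) and of all 640 miRNAs (blue) with over 3 counts in each library. Right, summed TMM-adjusted CPM of the 9 neuronal miRNAs other than miR-128-3p in control (C, grey) and SE (red) libraries, with error bars for exact 95% Poisson intervals on whole multiples of the low-count value; SE 8 h has the highest sum, 362 CPM, and control 4 h the widest interval.

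At 8 h, 5 of the 9 neuronal miRNAs present in either library were present in SE and not in control, and none in control and not in SE. The study had already named miR-132-3p and miR-218-5p among those raised at 8 h, so these shares are not independent of the choice. Among all 382 miRNAs present in either library at 8 h, 23.3% were present in SE alone and 18.3% in control alone. Set against all 3 control libraries at once, 4 of 9 neuronal miRNAs were present in SE 8 h and in no control, against 13.6% of all miRNAs. Low miRNAs are present in a single library more often than abundant ones, so the shares were also taken over miRNAs with a mean under 50 CPM over the 7 libraries, a choice made after the values were seen. There 5 of 8 neuronal miRNAs were present in SE 8 h alone, against 35.6% of all.

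At 4 h, 2 of 6 were present in SE alone, against 50% of all miRNAs, and none in control alone, against 3.16%. Against all 3 control libraries this was 1 of 6, beside 18.8% of all miRNAs. With a mean under 50 CPM it was 2 of 5, beside 73.8%. The share at 4 h was no higher than the background, and control 4 h had the lowest total count and the fewest miRNAs present of the 7 libraries. At 24 h, 3 of 7 were present in SE alone, against 23.5% of all miRNAs, and none in control alone, against 22.4%. Against all 3 control libraries 2 of 7 were, beside 12.4%, and with a mean under 50 CPM 3 of 6, beside 35.3%. At 2 weeks none of 4 was present in SE alone, against 25.7% of all miRNAs, and 1 was present in control 24 h alone, against 17.6%. With all 3 control libraries none of 5 was, beside 14.7%, and with a mean under 50 CPM none of 3, beside 38.2%.

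The activity-regulated pair is miR-132-3p and miR-212-3p, which are induced through the transcription factor CREB and act on dendrites and spines. miR-132-3p had 0 counts in each of the 3 control libraries, and 196, 169, 38 and 0 counts in SE in order of time. It was thus present in all 3 SE libraries of the first day and in none of the other 4. Its 3 SE levels of the first day were, in order, 46.0, 46.4 and 13.6 CPM.

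How firm these absences are differs with the time-point. Counts of miR-132-3p amounted to 5.21 multiples of the low-count value in SE 4 h, but the same level in control 4 h would have been 0.784 multiples, which is below 1. At 8 h, SE held 3.26 multiples and control would have held 3.32 at the same level. At 24 h, SE held 0.841 multiples, and control would have held 0.97. All 3 values for control are below 3.69, so in no single pair was the difference detectable at this depth. The pattern of presence in the 3 SE libraries of 4 h, 8 h and 24 h and absence from the 3 control libraries was seen for 7 of 530 miRNAs present in these 6 libraries (1.32%), and the reverse pattern for 1. The reverse pattern needs presence in control 4 h, with 190 miRNAs present, and absence from SE 4 h, with 368. The counts of 7 and 1 are thus not on equal terms. The other 6, listed here after their values were seen, were miR-1306-5p, miR-152-5p, miR-195a-5p, miR-362-3p, miR-582-3p and miR-672-5p.

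miR-212-3p, processed from the neighbouring hairpin, did not share this pattern. Its counts were 80, 0 and 56 in control 4 h, 8 h and 24 h, and 65, 97, 32 and 0 in SE in order of time. The groups overlapped, with the highest level, 45.9 CPM, in control 4 h, where 80 counts were 0.782 multiples of the low-count value. At 8 h it was present in SE alone, at 1.87 multiples where control would have held 1.91, and control 24 h held 1.02 multiples where SE 2 weeks would have held 1.32. Its other arm, miR-212-5p, had 44 counts in SE 8 h and 0 in the other 6 libraries.

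The mature sequences of this pair are shown with the seed, bases 2 to 8, in capitals, because the 2 miRNAs share it and can act on the same targets while their plasma patterns differed.
miR-132-3p: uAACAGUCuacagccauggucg
miR-212-3p: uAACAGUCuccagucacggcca
They differ at 5 of 22 positions, more than the 2 mismatches that the authors' alignment allowed. Sequences are from RefSeq on build GRCm38.p6, and 9 of the 10 names were matched. miR-132-3p lies at chr11:75173723-75173744 and miR-212-3p at chr11:75173443-75173464, both on the plus strand, with 203 bases between the annotated hairpins and within an intron of the noncoding gene 1700016P03Rik.

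Of the miRNAs of neuronal identity, miR-124-3p is the most abundant in neurons of the brain and represses genes of other cell types. It had 49 counts in SE 24 h (17.5 CPM, 1.08 multiples of the low-count value) and 0 in each of the other 6 libraries. The same level in control 24 h would have been 1.25 multiples. The other arm of its hairpin, miR-124-5p, had 41 counts in SE 24 h and 0 elsewhere. Both arms were thus seen in the same library, each at about 1 low-count value.

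miR-9-5p, which acts on neural progenitors and on the repressor REST, had 122, 111 and 1 counts in control 4 h, 8 h and 24 h. The SE libraries had 136, 284, 111 and 0 counts in order of time. Its level was highest in SE 8 h (78.0 CPM) and next in control 4 h (70.0 CPM), followed by SE 24 h (39.6 CPM), SE 4 h (31.9 CPM) and control 8 h (25.7 CPM), so the groups overlapped. At 8 h it was 3.03-fold higher in SE, with an interval on multiples from 0.418 to 26.8. At 4 h it was 2.19-fold lower in SE, although SE held 3.62 multiples and control 1.19. At 24 h SE held 2.46 multiples and the single count in control was 0.0181 multiples, where the level of SE would have been 2.83.

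The other arm of this hairpin, miR-9-3p, was present in SE 8 h alone, with 51 counts (14.0 CPM, 0.983 multiples). miR-137-3p, which acts on dendrite growth and synaptic vesicles, was also present in SE 8 h alone, with 43 counts (11.8 CPM, 0.829 multiples). Each of these counts is about 1 low-count value, and at the same levels control 8 h would have held 1.0 and 0.846 multiples. The 2 arms of miR-9 are shown because they were counted apart and carry different seeds.
miR-9-5p: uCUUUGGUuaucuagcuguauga
miR-9-3p: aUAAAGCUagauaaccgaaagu
The mouse genome holds 3 copies of this hairpin, on chromosomes 3, 7 and 13, and their counts cannot be told apart. The closest other mature miRNA, miR-9b-5p, lies within 2 mismatches of miR-9-5p and was not among the 640 counted, so reads of the 2 cannot be told apart.

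Among the miRNAs of synapses and excitability, miR-138-5p, which limits dendritic spine size, was highest in SE 8 h. It had 0, 76 and 52 counts in control 4 h, 8 h and 24 h, against 71, 329, 95 and 52 in SE in order of time. SE 8 h stood at 90.3 CPM and SE 24 h at 33.9 CPM, while the remaining 5 libraries lay between 0 and 17.6 CPM. It was 5.13-fold higher in SE at 8 h, on 6.34 multiples against 1.26, with an interval from 0.743 to 282. At 4 h it was present in SE alone, and the level of SE would have been 0.284 multiples in control 4 h. Another arm, miR-138-1-3p, had 21 counts in SE 8 h and 0 elsewhere.

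miR-218-5p, abundant in motor neurons and encoded in introns of Slit2 and Slit3, had 154 counts in SE 8 h (42.3 CPM), 1 count in control 24 h and 0 in the other 5 libraries. At 8 h SE held 2.97 multiples and control would have held 3.03 at the same level. It was thus present in a single library, at more than 1 low-count value there.

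miR-128-3p, which restrains neuronal excitability and is also found in other tissues, was by far the most abundant, with a mean of 1570 CPM and rank 33 of 640. Its levels were 1070, 1430 and 2270 CPM in control 4 h, 8 h and 24 h, and 1330, 1180, 1770 and 1950 CPM in SE in order of time. The groups overlapped, and the control libraries alone spanned 2.12-fold. Its log2 fold changes in the order of time were 0.31, -0.28, -0.36 and -0.22, below 1.5-fold in each comparison. The interval on multiples of the SE to control ratio left out 1 at 24 h (0.606 to 0.998), and so did that of control 24 h over control 4 h (1.32 to 3.73) and over control 8 h (1.23 to 2.05). With library sizes alone the change at 24 h was -0.98, where the median over all miRNAs tested moved from 0.04 to -0.58, and relative to that median it was -0.40 on each of the 3 scalings tried.

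miR-139-5p, encoded in an intron of Pde2a, was present in every library. Its counts were 132, 146 and 228 in control 4 h, 8 h and 24 h, and 81, 192, 34 and 160 in SE in order of time. Its levels were 75.8, 33.9 and 57.8 CPM in control and 19.0, 52.7, 12.1 and 51.8 CPM in SE, so that SE 4 h and SE 24 h lay below all 3 control libraries while SE 8 h and SE 2 weeks lay within their range. It was 3.98-fold lower in SE at 4 h and 4.77-fold lower at 24 h, with intervals on multiples of the SE to control ratio from 0.0157 to 17.8 and from 0.00586 to 2.91. Its other arm, miR-139-3p, had 95 counts in control 4 h, 0.929 multiples of the low-count value there, and 0 elsewhere.

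The sequences of the 4 miRNAs of this group are shown because they were present in from 1 to all 7 libraries, and no seed is shared among the 4.
miR-138-5p: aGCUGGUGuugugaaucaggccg
miR-218-5p: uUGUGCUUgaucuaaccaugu
miR-128-3p: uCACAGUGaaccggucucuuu
miR-139-5p: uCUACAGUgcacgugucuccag
miR-138-5p has 2 gene copies, at chr8:94324312-94324334 and chr9:122682898-122682920, within exons of noncoding genes. miR-128-3p also has 2, in introns of R3hdm1 on chromosome 1 and Arpp21 on chromosome 9, and miR-139-5p lies at chr7:101475382-101475403 on the plus strand.

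**Figure D2:**
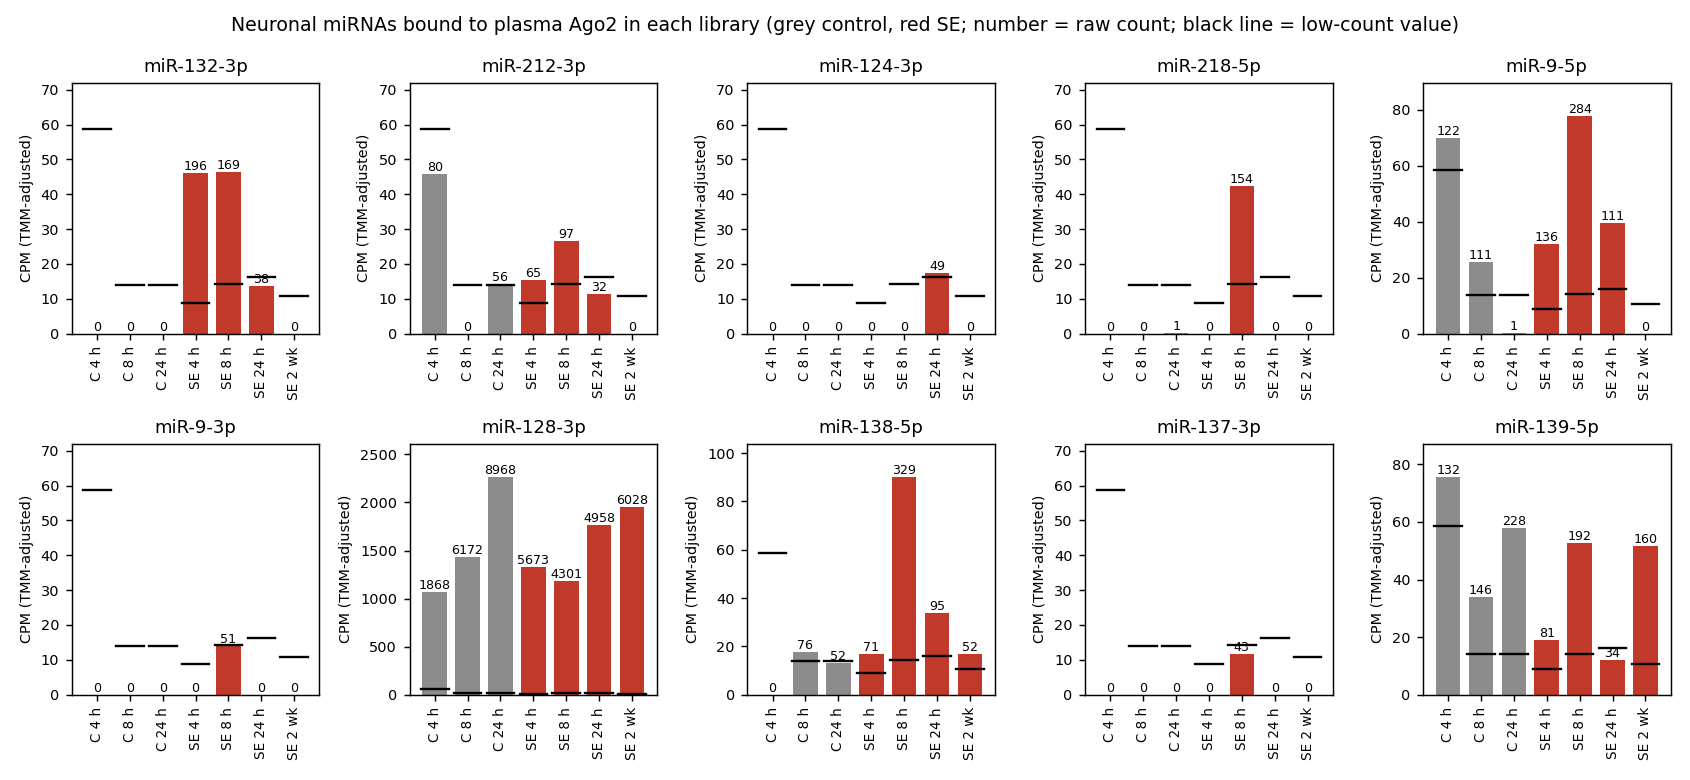
TMM-adjusted CPM of each of the 10 neuronal miRNAs in the control (C, grey) and SE (red) libraries, with the raw count above each bar and a black line at the low-count value of the library on the same scale. miR-132-3p is seen in the SE libraries of 4 h, 8 h and 24 h alone, and the line for control 4 h, at 58.7 CPM, lies above most bars of the other libraries.

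Pairs of libraries were compared with edgeR's exact test, which assumes a biological coefficient of variation (BCV), here 0.1. A miRNA entered where at least 1 of the pair reached 50 CPM, and was called at a change of 1.5-fold or more that passed this test. Every miRNA tested that changed by 1.5-fold also passed it, so the calls are those of the fold alone. At 8 h, 3 of the 4 neuronal miRNAs tested were called higher in SE, against 35.1% of all miRNAs tested, and none lower, against 14.9%. They were miR-138-5p (log2 fold change 2.36), miR-9-5p (1.60) and miR-139-5p (0.64), and the last was not called with library sizes alone or with DESeq2's size factors (0.55 on both). With library sizes alone miR-132-3p, at 53.4 CPM in SE 8 h on that scale, entered and was called higher. By log2 fold change, the median of all 154 miRNAs tested was 0.23, and 0.14 on either of these scalings. All 3 passed the 50 CPM filter through SE 8 h alone, so their direction was fixed by the filter.

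At 4 h, 2 of 3 were called lower in SE, miR-139-5p (-1.99) and miR-9-5p (-1.13), against 34.9% of all miRNAs tested, and none higher, against 32.3%. The median over all 189 miRNAs tested was -0.06, and -0.17 by library sizes alone and -0.19 with DESeq2's size factors. Both passed the filter through control 4 h alone, at 1.29 and 1.19 multiples of its low-count value. At 24 h, 1 of 2 was called lower, miR-139-5p (-2.25), which passed the filter through control 24 h alone, against 19.9% of all miRNAs, and none higher, against 24.8%. The split of all calls at 24 h was 35 higher and 28 lower, and with library sizes alone 13 higher and 75 lower, miR-128-3p among the lower. At 2 weeks none of 2 was called, against 18.6% higher and 13.1% lower of all miRNAs. The remaining neuronal miRNAs were under 50 CPM in both libraries of each comparison. With the BCV set at 0.4, the calls of miR-9-5p at 4 h and 8 h and of miR-139-5p at 8 h were lost.

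The control libraries, compared with each other in the same way after the values were seen, gave between 64 and 126 calls, where SE over control gave between 46 and 127, and differ in both time and pool. Control 8 h over control 4 h gave 105 calls among 177 miRNAs, 15.3% higher and 44.1% lower, with miR-9-5p and miR-139-5p lower among 3 neuronal miRNAs tested. Both passed the filter through control 4 h alone, which fixed their direction. Control 24 h over control 4 h gave 126 among 181, 26.5% higher and 43.1% lower, with miR-128-3p higher and miR-9-5p lower among 3. Here too miR-9-5p passed through control 4 h alone, which fixed its direction, while miR-128-3p passed in both libraries. Control 24 h over control 8 h gave 64 among 141, 26.2% higher and 19.1% lower, with both neuronal miRNAs tested, miR-128-3p and miR-139-5p, higher. Of these, miR-139-5p passed the filter through control 24 h alone, which fixed its direction. The balance of higher and lower calls turned with the scaling. The splits in this order were 27 higher and 78 lower, 48 and 78, and 37 and 27, and with library sizes alone 57 and 41, 70 and 46, and 32 and 31. DESeq2's size factors gave 35 and 62, 46 and 77, and 24 and 35, and called neither miRNA between control 24 h and control 8 h, and on both of these scalings miR-128-3p was also higher in control 8 h than in control 4 h.

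At a minimum of 10 CPM more of the neuronal miRNAs entered. At 8 h, 8 of 9 were called higher, all but miR-128-3p, against 40.8% of all miRNAs tested, and none lower, against 24.9%, and 5 of the 8 passed this minimum through SE 8 h alone. At 4 h, miR-132-3p and miR-138-5p of 6 tested were called higher, both through SE 4 h alone, against 49.8%, and miR-139-5p, miR-212-3p and miR-9-5p lower, against 27.8%. At 24 h, miR-124-3p, miR-132-3p, miR-138-5p and miR-9-5p of 7 were called higher, against 36.2%, with miR-124-3p, miR-132-3p and miR-9-5p passing through SE 24 h alone, and miR-139-5p lower, against 32.6%. At 2 weeks none of 4 was called higher, against 28.4%, and miR-212-3p lower, through control 24 h alone, against 28.4%. These calls include counts of 0 and 1 in the other library, whose multiples are given above.

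To ask whether the 10 moved as a group, their levels were summed. The sum of all 10 was 1260, 1510 and 2360 CPM in control 4 h, 8 h and 24 h, and 1460, 1540, 1900 and 2020 CPM in SE in order of time. Its ratios of SE to control were 1.16, 1.02, 0.805 and 0.856 in order of time, each under 1.5-fold in either direction, and 0.524 at 24 h by library sizes alone. The direction turned with the scaling at 4 h and 8 h. At 8 h the other scalings gave between 0.836 and 0.964. At 4 h the ratio was 0.787 with miR-486b-5p left out of the library size. The sum of all 10 thus showed no rise of 1.5-fold in SE 8 h. This sum followed miR-128-3p, so the sum of the other 9 is also given, a choice made after the values were seen. The sum of 9 was 192, 77.2 and 85.7 CPM in control 4 h, 8 h and 24 h, and 129, 362, 128 and 68.7 CPM in SE in order of time. SE 8 h was highest, and its interval, from 230 to 526 CPM, lay above those of control 8 h (30.7 to 182), control 24 h (30.8 to 182), SE 4 h (74.1 to 218) and SE 2 weeks (23.6 to 140). It overlapped those of SE 24 h (55.7 to 254) and control 4 h (36.3 to 515), and the intervals of the other 6 libraries all overlapped each other.

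The summed level of these 9 in SE was 4.69 times that of control at 8 h, with an exact interval on multiples from 1.7 to 12.7. The ratio was 0.672 (0.213 to 4.05) for 4 h, 1.49 (0.468 to 5.38) for 24 h, where library sizes alone gave 0.975, and 0.802 (0.205 to 2.87) for 2 weeks. Of the 4, the interval at 8 h alone left out a ratio of 1, in the sum chosen after the values were seen, while intervals for miR-128-3p between control libraries also left it out. These intervals cover counting error and not the differences between pools of mice. In plasma, the number of cells that released a miRNA and the amount released per cell cannot be told apart.

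The SE libraries of 4 h, 8 h and 24 h were also compared with the 3 control libraries as groups. Each side then mixes 3 time-points, so its spread holds time as well as pool. edgeR's quasi-likelihood test with Benjamini-Hochberg adjustment called 0 of 315 miRNAs with a mean of at least 5 CPM (0.0%), with 26 at an unadjusted p under 0.05. DESeq2 was given the same 315 and called 9 (2.86%), though it did not give every one an adjusted p. With the time-point as a block, which pairs SE with the control of the same time, edgeR called 13, and none of the neuronal miRNAs. Of the 10 neuronal miRNAs edgeR tested 7 and called none. DESeq2 gave a p for 6, without miR-218-5p, and called miR-132-3p alone. miR-132-3p had an adjusted p of 0.408 in edgeR (present in 3 of 3 SE and 0 of 3 control libraries), 0.0055 in DESeq2 and between 0.0818 and 0.909 over edgeR's alternatives. For miR-138-5p edgeR's adjusted p was 0.842 and for miR-218-5p 0.599, and for the other 4 it was 0.982 or 0.983.

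Further miRNAs known from neurons were described for comparison, from a list of 29 of which 18 were counted. Of the 17 with a position in the sequence table, 12 lie in 1 stretch of chromosome 12 from 109591781 to 109743784, the imprinted Dlk1-Dio3 region, whose miRNAs are abundant in brain and also made in other tissues. The 18 summed to 1380, 446 and 124 CPM in control 4 h, 8 h and 24 h, and to 1190, 1920, 613 and 145 CPM in SE in order of time. The sum was highest in SE 8 h, and control 4 h lay above control 8 h and control 24 h.

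At 8 h all 7 of the list that were tested were called higher in SE, on each of the 3 scalings, against 35.1% of all miRNAs tested, with a median log2 fold change of 2.19 beside 0.23 for all. Of the 7, miR-541-5p, miR-411-5p, miR-409-3p and miR-149-5p passed the 50 CPM filter through SE 8 h alone, which fixed their direction, and miR-127-3p, miR-434-3p and miR-410-3p reached it in both libraries. miR-127-3p, the most abundant, had 590 counts in control 8 h and 3384 in SE 8 h and was 6.79-fold higher. miR-541-5p, with 66 and 886 counts, was 15.9-fold higher, miR-411-5p 4.91-fold and miR-409-3p 4.57-fold. miR-149-5p, miR-434-3p and miR-410-3p were 3.16-fold, 2.77-fold and 1.75-fold higher.

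At 4 h the same list had 1 of 7 called higher, miR-541-5p (50.3 CPM, with 0 counts in control), against 32.3% of all miRNAs tested, and 3 lower, miR-134-5p (-2.66), miR-409-3p (-1.97) and miR-149-5p (-0.90), against 34.9%, with a median of -0.34 beside -0.06 for all. miR-541-5p passed the filter through SE 4 h alone, at a level below the low-count value of control 4 h. The 3 others passed through control 4 h alone, at 0.968, 2.24 and 0.86 multiples of its low-count value, so the filter fixed all 4 directions. On library sizes alone 1 miRNA of the list was called, lower, and DESeq2's size factors gave 2, both lower. At 24 h 2 of 2 were called higher, miR-127-3p (3.60-fold) and miR-434-3p, with 1 count in control and 630 in SE, against 24.8% of all miRNAs tested, and at 2 weeks 1 of 1, miR-127-3p (1.53-fold), against 18.6%. All 3 passed the filter through the SE library alone, which fixed their direction. Both arms of miR-129, another neuronal miRNA, were present in SE 8 h alone, with 25 counts of miR-129-5p and 51 of miR-129-2-3p, named after their values were seen. Of 13 of the list present at 8 h in either library, 3 were present in SE alone, near the background of 23.3%, and miR-488-3p was present in control alone, with 65 counts. At 4 h 5 of 11 were present in SE alone, beside 50% of all miRNAs. At 24 h this was 5 of 10, beside 23.5%, and at 2 weeks 4 of 9, beside 25.7%. In control alone there were none at 4 h, 1 at 24 h and 2 at 2 weeks, beside 3.16%, 22.4% and 17.6%.

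A broader list is that of miRNAs reported as enriched in neurons, compiled by the study among those detected in these libraries. The 57 used here are those printed in its supplementary list, fewer than the number its text gives. They include 8 of the 10 neuronal miRNAs and 11 of the 18, so they are not independent of them. They also include miR-133b-3p, which is counted below among the muscle and heart miRNAs. At 8 h 15 were called higher and 4 lower of 29 tested, beside 35.1% and 14.9% of all miRNAs tested, with a median log2 fold change of 0.64 beside 0.23. Of the 15, at least miR-541-5p, miR-411-5p, miR-133b-3p, miR-138-5p, miR-9-5p and miR-139-5p passed the filter through SE 8 h alone, which fixed their direction. Calls at the other times also included miRNAs that passed the filter through 1 library alone. At 4 h 8 were higher and 9 lower of 29, beside 32.3% and 34.9%, with a median of -0.10 beside -0.06. At 24 h 6 were higher and 7 lower of 23, beside 24.8% and 19.9%, with a median of -0.26 beside 0.04, and with library sizes alone 5 were higher and 14 lower. At 2 weeks 4 were higher and 2 lower of 20, beside 18.6% and 13.1%, with a median of -0.06 beside 0.01. The study's lists for other brain cells also held calls. They share members with the blood and muscle lists below, so their calls are not separate from those. At 4 h the higher astrocyte calls included miR-126a-3p and miR-126a-5p, and the microglia calls miR-142a-3p and miR-142a-5p. These are counted below among the leukocyte and platelet miRNAs. Oligodendrocyte calls at 8 h, 24 h and 2 weeks included miR-133a-3p, counted below among the muscle and heart miRNAs. At 4 h 9 of 19 astrocyte, 5 of 9 oligodendrocyte and 6 of 13 microglia miRNAs tested were higher. In this order 2, 0 and 0 were lower. At 8 h 5 of 18, 3 of 7 and 1 of 14 were higher, and 1, 0 and 1 lower. At 24 h 1 of 16, 3 of 7 and 1 of 14 were higher, and 2, 0 and 2 lower. With library sizes alone 1, 1 and 0 were higher there, and 9, 1 and 9 lower. At 2 weeks 2 of 16, 3 of 8 and 0 of 14 were higher, and 4, 0 and 2 lower.

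Some miRNAs of other tissues were also called at 8 h. miR-375-3p, abundant in pancreatic islets and other endocrine cells, was at 1590, 1100 and 983 CPM in control 4 h, 8 h and 24 h, and at 1250, 5760, 1390 and 964 CPM in SE in order of time. It was 5.25-fold higher in SE at 8 h. Of 7 muscle and heart miRNAs 3 were counted, led by miR-133a-3p, with sums of 945, 824 and 117 CPM in control and 1250, 1560, 267 and 120 CPM in SE in the same order. At 8 h miR-133b-3p, which passed the filter through SE 8 h alone, was 7.35-fold and miR-133a-3p 1.82-fold higher in SE, and miR-208b-3p had 62 counts in control and 0 in SE. The part of these tissues in the neuronal result was not tested.

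Lists for other sources of plasma RNA also held calls, and the time-points differed. Of all miRNAs tested, 32.3% were called higher and 34.9% lower at 4 h, and 35.1% and 14.9% at 8 h. The shares were 24.8% and 19.9% at 24 h, and 18.6% and 13.1% at 2 weeks. The 6 red blood cell miRNAs, led by miR-486b-5p, had TMM-adjusted sums of 896000, 556000 and 585000 CPM in control 4 h, 8 h and 24 h, and 862000, 547000, 1010000 and 525000 CPM in SE in order of time. Of 4 tested in each comparison, at 4 h miR-144-3p (0 counts in control and 1407 in SE) and miR-144-5p (1 and 779) were called higher and none lower. At 8 h none was higher and 1 lower. At 24 h miR-486b-5p and miR-144-5p were called higher (log2 fold change 0.80 each), while with library sizes alone none was higher and 1 lower, and at 2 weeks 1 was lower.

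Leukocyte and platelet miRNAs, led by miR-142a-5p, summed to 6850, 8220 and 13400 CPM in control and to 11200, 8750, 12500 and 12600 CPM in SE in the same order. At 4 h 4 of 7 tested were called higher and none lower, against 32.3% and 34.9% of all miRNAs tested. On each of the other scalings 3 were higher. At 8 h 1 of 8 was called, lower, against 14.9% of all miRNAs tested. At 24 h 2 of 7 were called, both lower, against 19.9% (4 with library sizes alone). None of 7 was called at 2 weeks, against 18.6% higher and 13.1% lower. The liver list held 2 counted miRNAs, miR-192-5p and miR-122-5p. Their sums, nearly all from miR-192-5p, were 12000, 13400 and 14400 CPM in control and 20700, 22400, 20700 and 15200 CPM in SE. miR-192-5p, which the study lists as ubiquitous, was called higher at 4 h (0.78) and 8 h (0.74) and at no other time. miR-122-5p, the main miRNA of hepatocytes, had 59 counts in SE 4 h, 55 in SE 2 weeks, 1 in SE 24 h and 0 in the other 4 libraries. Of 4 oligodendrocyte miRNAs 3 were counted, and miR-338-3p had 38 counts in SE 4 h, 50 in SE 8 h, 28 in control 24 h and 0 in the other 4 libraries, while miR-338-5p had 92 in SE 4 h, 24 in SE 2 weeks and at most 1 in the other 5. Muscle and heart miRNAs had 1 of 2 tested called higher at 4 h, 2 of 2 at 24 h and 1 of 1 at 2 weeks, and none lower. Of all miRNAs tested, 32.3%, 24.8% and 18.6% were called higher at these times. At 24 h miR-133b-3p passed the filter through SE 24 h alone, which fixed its direction. The part of these sources in the neuronal values at each time was not tested.

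The miRNAs whose levels ran most like those of the neuronal group were found by Pearson's r of log2(CPM + 1) over the 7 libraries, among miRNAs with a mean of at least 50 CPM, as a description. The sum of the 9 ran most like miR-375-3p (r = 0.93), miR-127-3p (0.87) and miR-92b-3p (0.81). miR-132-3p ran most like miR-182-5p (0.98), miR-192-5p (0.94) and miR-101a-3p (0.89), and miR-9-5p like miR-92b-3p (0.96), miR-410-3p (0.94) and miR-107-3p (0.89). miR-138-5p ran most like miR-1839-5p (0.92), miR-27a-3p (0.92) and miR-541-5p (0.91). miR-128-3p ran like miR-21a-5p, miR-26a-5p and miR-181c-5p (0.95 each), and miR-139-5p like miR-5112 (0.87), miR-2137 (0.86) and miR-6236 (0.77). For miR-212-3p the highest values were lower, 0.77 for miR-133b-3p, 0.69 for miR-205-5p and 0.68 for miR-378c. The 7 points share their scaling, and many values are at 0.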

How the data were processed

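Small RNA bound to plasma Ago2 was sequenced in 7 libraries, 1 per condition. The authors trimmed adapters and used the Chimera software, which runs BLASTn against mouse miRBase, allowing up to 2 mismatches, and deposited raw counts of reads per mature miRNA (640 miRNAs). The versions of Chimera and BLASTn are not given in the sources used here.

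From these counts, TMM factors over 7 libraries were computed in edgeR 4.0.16 (R 4.3.3, limma 3.58.1, prior count 0.125). Pairs of libraries were compared by the exact test with a BCV of 0.1, and 3 SE against 3 control libraries (without 2 weeks) by the quasi-likelihood test. The low-count value is where a smoothed density of log-transformed counts between 6 and 300 peaks (natural log, Gaussian kernel, bandwidth 0.15), found with scipy 1.17.1, pandas 2.3.3 and numpy 2.4.6 under Python 3.11.15. Figures were drawn with matplotlib 3.10.9. Alternatives were other scalings, filters and BCV, DESeq2 1.42.0, a time-point block and leaving out libraries.

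The neuronal miRNAs and the lists were chosen with earlier results of these data known. All 10 neuronal miRNAs are named. Of other lists, the 3 with the highest mean CPM at most are named, and every other arm or other neuronal miRNA past the call. Further names were chosen after their values were seen. Quantitative PCR and tagged mice were not analysed here.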

Additional observations from a re-analysis of the deposited data

Results flagged for a closer look

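At a minimum of 50 CPM, between 2 and 4 of the 10 neuronal miRNAs were tested in each comparison. Of these, 2 were called in opposite directions at different time-points (miR-212-3p was as well at 10 CPM). The difference between time-points was not tested, and the share of all miRNAs called in opposite directions was not counted. miR-9-5p had a log2 fold change (SE over control) of 1.6 at 8 h and -1.13 at 4 h. miR-139-5p had a log2 fold change of 0.64 at 8 h, -1.99 at 4 h and -2.25 at 24 h. The 50 CPM filter fixed each of these directions, since both miRNAs passed it through SE 8 h alone at 8 h and through control 4 h alone at 4 h, and miR-139-5p through control 24 h alone at 24 h. miR-139-5p at 8 h was not called with library sizes alone or with DESeq2's size factors, and with a BCV of 0.4 it and both calls of miR-9-5p were lost. Each value compares a single pair of libraries, and at 4 h the control counts were 1.19 and 1.29 multiples of the low-count value.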

How the results depend on the processing

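The calls depended most on the filter and on the BCV. In order of time, the 4 comparisons' 127, 77, 63 and 46 calls became 218, 227, 230 and 178 at a minimum of 10 CPM, 310, 257, 261 and 238 with no minimum (any count), and 58, 23, 19 and 8 with a BCV of 0.4, since more or fewer miRNAs then pass. Against the mean of the 3 control libraries 84 were called at 4 h, 57 higher and 27 lower, where the pair gave 61 and 66. The split of higher and lower turned at 24 h, from 35 and 28 to 28 and 35. It also turned at 2 weeks, from 27 and 19 to 24 and 37. The cause was not tested. For the 3 SE against the 3 control libraries, edgeR's 0 calls became 3 with no minimum, 13 with the time-point as a block and 9 in DESeq2, and between 0 and 3 leaving out each library in turn, with 3 without SE 4 h; the cause was not tested. Scaling changed none of the total counts of calls by over 1.5 times, and 42 counts under alternatives stayed within it. For calls and for one-sided presence this holds of both directions added up and not of each. With library sizes alone, the 35 higher and 28 lower calls at 24 h became 13 and 75. Against all 3 controls, presence in SE alone went, in order of time, from 190, 89, 87 and 98 to 87, 59, 53 and 65, and presence in control alone from 12, 70, 83 and 67 to 95, 123, 142 and 127, since a union of 3 libraries holds more miRNAs. At 4 h control alone was 30 at a floor of 0 counts and 4 under 50 CPM in both libraries. For single miRNAs and sums, 124 values under alternatives stayed within their intervals or on their side of the threshold, 2 did not (miR-128-3p, above, and the sum of 10), and miR-132-3p passed the threshold in DESeq2, which gave no p for miR-218-5p. By library sizes alone, the summed level of the 10 miRNAs in SE at 24 h was 0.524 times control. The sum of 9 on multiples of the low-count value, other scalings of it, presence in 3 against none, presence at a mean under 50 CPM and calls between control libraries were chosen after seeing the data. Depth limits the results most in control 4 h, and 1 library per condition leaves the spread between pools unmeasured.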
